A study of Mus musculus with 23 samples.

Results

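Blood vessel genes were examined in 23 whole E0771 tumors, 1 expression array per tumor. A list of 40 genes that mark endothelial cells or guide vessel growth was matched to the array by gene symbol, and 39 had a probe set (Egfl7 was not analysed here). Of these, 4 (Esm1, Apln, Angpt2 and Dll4) are genes of tip cells, and the other 35 are expressed by endothelium more generally. The 39 stand among 19505 genes with a symbol on the array. All values below are log2 signals as deposited, so a difference of 1 is a 2-fold change.

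E0771 is a mouse line of triple-negative breast cancer, and the tumors grew in the mammary fat pad of female C57BL/6NCrl mice. CON-LFD mice (n = 6) were lean and ate a low-fat diet throughout. The other 3 groups were first made obese on a 60% fat diet: DIO-HFD mice (n = 6) stayed on it, DIO-LFD mice (n = 5) were changed to low-fat diet, and DIO-VSG mice (n = 6) had a vertical sleeve gastrectomy, which removes much of the stomach, followed by low-fat diet. Mice that had no gastrectomy had sham surgery, and tumor cells were injected 22 weeks after the mice were assigned to a diet. Every tumor came from the same cell line, and its vessels came from the host. Group names follow the sample titles. The source names of DIO-LFD replicate 1 and DIO-VSG replicate 1 give another group (obese without weight loss, and low-fat diet, respectively). Fits were therefore also run without those arrays and with source names as groups. Calls, and signs of tip cell genes, that changed are given both ways, while most sizes are given by title only.

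Endothelial cells line every blood vessel and are held together by junction proteins such as VE-cadherin (Cdh5), PECAM-1 (Pecam1) and claudin-5 (Cldn5). When tissue needs blood, vascular endothelial growth factor (VEGF) binds VEGFR2 (Kdr) and turns some cells into tip cells, which lead a new sprout. Tip cells display the Notch ligand Dll4, which keeps their neighbors as stalk cells, and secrete Apln, the ligand of the receptor Aplnr. They also secrete Angpt2, which loosens vessels by competing with Angpt1 at the Tie2 receptor (Tek), and Esm1 (endocan), a proteoglycan. The remaining endothelial genes are used by quiescent as well as sprouting vessels. In a whole tumor, fewer endothelial cells and less RNA per endothelial cell cannot be told apart.

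The promoters of the tip cell genes are shown because Esm1, Apln and Angpt2 moved together over the tumors, with Dll4 farther from them, as described below. Each window runs from 250 bases before to 50 bases after the annotated start and comes from RefSeq on GRCm38.p6, where 21 of the 40 genes had a window (26 windows, since some genes have several starts). Capitals mark every match, on either strand, to the core of the hypoxia response element (ACGTG or GCGTG) or to an ETS motif (CCGGAA or AGGAAG, the kind bound by the endothelial factor Erg). The windows are chrX:48034804-48035103 on the minus strand for Apln, and chr2:119325534-119325833 and chr13:113209409-113209708 on the plus strand for Dll4 and Esm1. Angpt2 has no window here.
Apln: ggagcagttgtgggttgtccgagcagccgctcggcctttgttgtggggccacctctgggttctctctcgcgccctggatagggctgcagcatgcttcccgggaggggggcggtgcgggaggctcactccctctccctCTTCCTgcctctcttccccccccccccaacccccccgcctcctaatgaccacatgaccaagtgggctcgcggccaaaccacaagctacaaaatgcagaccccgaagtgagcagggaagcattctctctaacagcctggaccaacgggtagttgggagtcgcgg
Dll4: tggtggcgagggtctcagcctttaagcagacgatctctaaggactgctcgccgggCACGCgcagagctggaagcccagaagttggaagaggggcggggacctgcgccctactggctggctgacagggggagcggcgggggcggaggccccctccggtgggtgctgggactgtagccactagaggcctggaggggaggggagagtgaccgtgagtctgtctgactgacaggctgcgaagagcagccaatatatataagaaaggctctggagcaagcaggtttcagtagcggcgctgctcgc
Esm1: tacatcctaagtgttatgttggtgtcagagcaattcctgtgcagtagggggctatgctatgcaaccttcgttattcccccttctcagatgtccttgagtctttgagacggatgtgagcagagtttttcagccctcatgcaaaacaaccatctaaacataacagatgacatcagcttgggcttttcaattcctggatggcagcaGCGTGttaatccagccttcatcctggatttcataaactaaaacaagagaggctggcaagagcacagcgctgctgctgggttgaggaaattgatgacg
The capitals are an AGGAAG on the opposite strand in Apln (position -113 from the start), a GCGTG on the opposite strand in Dll4 (-195) and a GCGTG in Esm1 (-47). The hypoxia core stood in 10 of the 26 windows (38.5%), against 43.8% of all 32851 windows, and the ETS motif in 15 of 26 (57.7%) against 45.2%. A match is a description of the letters and not a binding site.

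Most of the endothelial genes were readable in the tumors. Of the 39 genes, 34 lay above 4.77, the 40th percentile of probe set means, while Sox17, Sox18, Tal1, Clec14a and Nos3 lay below it. Over all 19505 genes, 11886 lay above it. Each gene was measured by 1 probe set, so levels are compared between tumors and never between genes. Array medians ran from 6.12 to 6.5. The arrays differed widely in skeletal muscle transcripts: the mean of 25 muscle genes (25 of 25 measured, none at 0) ran from 4.814 to 14.484 in CON-LFD, 4.893 to 9.486 in DIO-HFD, 4.964 to 11.799 in DIO-LFD and 4.849 to 10.864 in DIO-VSG. It exceeded 9 in 8 arrays, which were replicates 2 and 4 of DIO-VSG, replicates 1, 4 and 5 of DIO-LFD, replicate 1 of DIO-HFD and replicates 3 and 5 of CON-LFD. DIO-HFD replicate 5 stood apart in 15 adipocyte genes, with a mean of 11.217 against a DIO-HFD median of 5.885.

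With limma, and p-values adjusted by Benjamini-Hochberg across the 19505 genes (threshold 0.05), no endothelial gene was called in any of the 7 comparisons. Calls over all genes were as rare: 0% in each of the 6 comparisons other than DIO-HFD against CON-LFD, where 1 gene was called (0.00513%). What follows therefore describes sizes, array values and unadjusted p-values, none of which passed the test across genes.

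The tip cell genes were high in both DIO-HFD and DIO-VSG tumors and low in both CON-LFD and DIO-LFD tumors. Their mean was 7.79 ± 0.75 (SD, n = 6) in DIO-HFD and 7.84 ± 0.82 (n = 6) in DIO-VSG, against 6.51 ± 0.69 (n = 6) in CON-LFD and 6.73 ± 1.06 (n = 5) in DIO-LFD. The median of the 4 differences was 0.28 for DIO-VSG against DIO-HFD, 1.25 against CON-LFD and 1.16 against DIO-LFD. Over all genes these medians were -0.01, 0.023 and 0.018. By this mean, the DIO-VSG tumors lay beside the tumors of mice that stayed obese, and the DIO-LFD tumors beside those of mice that were never obese. The place of DIO-LFD rested on its 3 muscle-rich arrays of 5 and on its labels: its mean was 7.65 over the other 2 tumors, nearer the 7.86 of DIO-HFD than the 6.91 of CON-LFD without such arrays, and the median of DIO-LFD minus DIO-HFD went from -1.12 to -0.15 with source names as groups.

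Apln separated the groups most clearly. In DIO-VSG tumors its lowest, median and highest signals were 7.91, 8.4 and 9.64, and in DIO-HFD tumors 7.16, 8.335 and 9.27. In CON-LFD tumors they were 5.5, 6.825 and 8.33, and the 5 DIO-LFD tumors read 5.37, 8.76, 6.7, 6.75 and 6.18. The lowest DIO-VSG tumor lay above 5 of 6 CON-LFD and 4 of 5 DIO-LFD tumors, so the groups overlapped only through CON-LFD replicate 4 and DIO-LFD replicate 2. Apln was 3.74-fold higher in DIO-VSG than in CON-LFD (log2 difference 1.90, SE 0.505, limma adjusted p = 0.597) and 3.70-fold higher than in DIO-LFD (1.89, SE 0.53, adjusted p = 1.00). Against DIO-HFD the difference was 0.37, within the spread of either group. Without muscle-rich arrays the Apln means lay closer, at 8.895 in DIO-VSG, 7.73 in 2 DIO-LFD tumors and 7.32 in CON-LFD.

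**Figure D1:**
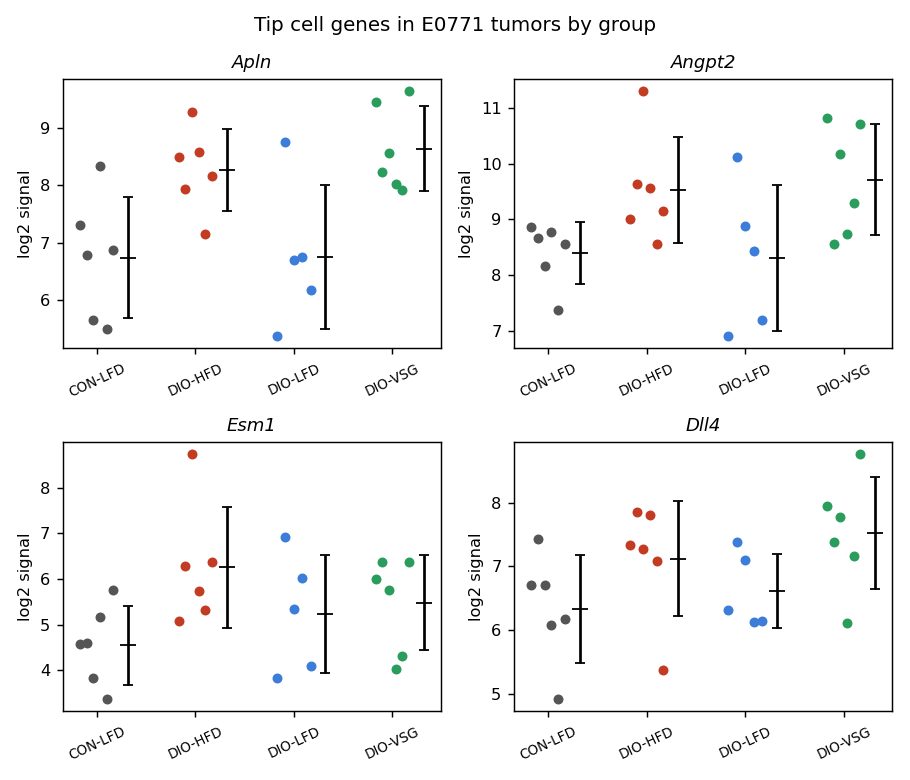
Log2 signal (y axis) of Apln, Angpt2, Esm1 and Dll4 in each tumor, by group (x axis); points are single tumors and bars are the group mean ± SD (n = 6, or 5 in DIO-LFD). Apln and Angpt2 lie higher in DIO-HFD and DIO-VSG than in CON-LFD, while Esm1 is highest in DIO-HFD.

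Angpt2 followed Apln. Its signals were 8.56 (lowest), 9.73 (median) and 10.82 (highest) in DIO-VSG, 8.55, 9.35 and 11.3 in DIO-HFD, and 7.38, 8.605 and 8.86 in CON-LFD. The DIO-LFD tumors read 6.9, 10.11, 8.88, 8.43 and 7.19, which spans almost the whole range of the other groups. Of the 6 DIO-VSG tumors, 4 lay above every CON-LFD tumor. The DIO-VSG mean was 2.49-fold that of CON-LFD (1.32, SE 0.515, limma adjusted p = 0.672) and 2.66-fold that of DIO-LFD (1.41, SE 0.54, adjusted p = 1.00). Against DIO-HFD the difference was 0.18 (SE 0.515), and it turned to -0.04 without DIO-VSG replicate 1. Without muscle-rich arrays the Angpt2 means were 10.248 in DIO-VSG, 9.495 in 2 DIO-LFD tumors and 8.71 in CON-LFD.

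Dll4 was also highest in DIO-VSG tumors, at 6.12, 7.58 and 8.76, against 4.92, 6.44 and 7.43 in CON-LFD and 5.38, 7.305 and 7.85 in DIO-HFD. The DIO-LFD tumors read 6.32, 7.38, 7.1, 6.13 and 6.14. The ranges overlapped, with 3 of 6 DIO-VSG tumors above the highest CON-LFD tumor. The difference was 1.19 against CON-LFD (SE 0.441, limma adjusted p = 0.634), 0.91 against DIO-LFD and 0.40 against DIO-HFD. Without muscle-rich arrays the Dll4 means were 7.91 in DIO-VSG, 7.24 in 2 DIO-LFD tumors and 6.598 in CON-LFD.

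Esm1 differed in order from the other tip cell genes. Its mean was highest in DIO-HFD tumors (5.07, 6.01 and 8.73), with DIO-VSG at 4.04, 5.88 and 6.38 and CON-LFD at 3.37, 4.58 and 5.76. The DIO-LFD tumors read 3.84, 6.91, 5.35, 6.01 and 4.09. The largest Esm1 difference was that of DIO-HFD over CON-LFD, 3.26-fold (1.70, SE 0.602, limma adjusted p = 0.211). DIO-VSG minus DIO-HFD was -0.77 (SE 0.602), and -0.28 without DIO-HFD replicate 3, the tumor at 8.73. DIO-VSG minus DIO-LFD was 0.24 and took the opposite sign, -0.52, without the 8 muscle-rich arrays.

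In the comparisons without gastrectomy, the tip cell genes were apart in the same way. DIO-HFD minus CON-LFD was 1.53 for Apln (limma adjusted p = 0.183), 1.13 for Angpt2 and 0.79 for Dll4, and the median over the 4 genes was 1.33 beside 0.027 over all genes. DIO-LFD minus DIO-HFD was below 0 for all 4, with -1.52 for Apln, -1.23 for Angpt2, -1.01 for Esm1 and -0.51 for Dll4. Without the 8 muscle-rich arrays, which leave 2 DIO-LFD tumors, these were -0.49, -0.14, -0.36 and 0.16. DIO-LFD minus CON-LFD was 0.01 for Apln and -0.10 for Angpt2, but 0.41 and 0.79 without the muscle-rich arrays, and for Angpt2 0.69 with source names as groups. These comparisons share their groups, so they are not separate evidence of one another.

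Muscle transcripts moved against the tip cell genes. The mean of the muscle list was 6.69 in DIO-HFD and 6.80 in DIO-VSG, but 8.24 in CON-LFD and 9.25 in DIO-LFD. After group means were subtracted, the tip cell mean and the muscle list mean had r = -0.71 and rho = -0.72 over 23 arrays, r = -0.66 without the 2 arrays farthest out, and r = -0.18 over the 15 arrays that were not muscle-rich. The mean of the general genes showed no such relation over 23 arrays (r = 0), although Pecam1 (r = -0.63) and Vcam1 (r = -0.53) did. Its r was -0.25 without the 2 arrays farthest out. Over the 15 arrays that were not muscle-rich it was -0.12, close to the -0.18 of the tip cell mean. Correlations here are descriptions of arrays that share their normalization, and no p is attached.

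**Figure D2:**
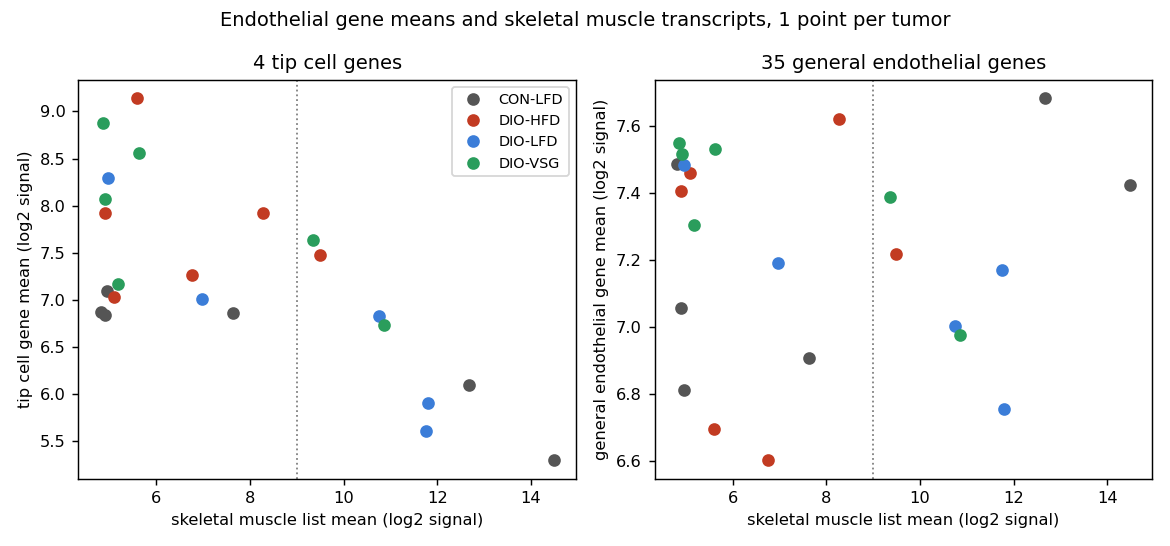
Mean log2 signal of the 4 tip cell genes (left) and of the 35 general endothelial genes (right) against the mean of 25 skeletal muscle genes, 1 point per tumor, colored by group; the dotted line marks 9, above which an array was called muscle-rich. The 2 lowest tip cell means among CON-LFD tumors are the 2 muscle-rich ones, while the general mean does not follow the muscle axis.

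Without the 8 muscle-rich arrays, the tip cell mean was 8.17 ± 0.74 (SD) over 4 DIO-VSG tumors, 7.86 ± 0.82 over 5 DIO-HFD, 7.65 ± 0.91 over 2 DIO-LFD and 6.91 ± 0.12 over 4 CON-LFD. The lowest DIO-VSG mean, 7.17, then lay above the highest CON-LFD mean, 7.09. The median difference of DIO-VSG from CON-LFD was 1.43 in those arrays, and 0.94 with the muscle and adipocyte means as covariates. The low tip cell values of DIO-LFD were less stable: DIO-LFD minus DIO-HFD went from a median of -1.12 to -0.25 without the muscle-rich arrays and to -0.60 with the covariates.

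The tip cell genes also kept company with hypoxia and VEGF ligand genes within groups. Over 23 arrays, the tip cell mean had r = 0.72 (rho = 0.68) with 18 hypoxia and glycolysis genes and r = 0.84 (rho = 0.77) with 6 measured VEGF and PlGF ligands and coreceptors, and these were 0.66 and 0.83 over the 15 arrays that were not muscle-rich. Without the 2 arrays farthest out they were 0.58 and 0.79. Esm1, Apln and Angpt2 had r of 0.75, 0.70 and 0.76 with the hypoxia list, whereas Dll4 had 0.18. The group means of the hypoxia list repeated the tip cell pattern only in part, with 13.28 in DIO-VSG, 13.27 in DIO-LFD, 13.18 in CON-LFD and 13.47 in DIO-HFD. The median difference of its genes was 0.33 for DIO-HFD minus CON-LFD and -0.19 for DIO-LFD minus DIO-HFD, as in the tip cell genes by sign. For DIO-VSG minus DIO-HFD it was -0.20, and for DIO-VSG minus DIO-LFD -0.02, unlike the tip cell genes. Vegfa itself, the main VEGF ligand, averaged 12.20 in CON-LFD and 12.00 in DIO-VSG, against 11.76 in DIO-HFD and 11.60 in DIO-LFD. Pgf, the placental growth factor, averaged 7.77 in CON-LFD and 8.48 in DIO-VSG, against 8.43 in DIO-HFD and 8.19 in DIO-LFD.

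Among themselves, Esm1, Apln and Angpt2 were close (r from 0.735 to 0.835 for their pairs), and Dll4 was farther (0.356 to 0.573). Dll4 lay nearer the general genes, with r = 0.587 to their mean, against -0.14, -0.138 and 0.063 for Esm1, Apln and Angpt2. The tip cell mean and the general mean had r = 0.077. Outside the list, the genes most like the tip cell mean were Serpinf1 (r = 0.874, the secreted angiogenesis inhibitor PEDF) and Igfbp3 (0.839, a binding protein of insulin-like growth factors). Serpinf1 averaged 13.04 in DIO-HFD and 12.53 in DIO-VSG, against 12.25 in CON-LFD and 12.04 in DIO-LFD. Igfbp3 averaged 11.28 in DIO-HFD and 11.06 in DIO-VSG, against 9.76 in CON-LFD and 10.06 in DIO-LFD. Next came Magi3, Espn, Vmn1r35, Olfr1255, Ccdc78 and Flrt2 (r from 0.782 to 0.802).

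General endothelial genes differed less, and in DIO-VSG tumors most stood slightly above the other groups. Their mean was 7.38 ± 0.22 (SD) for DIO-VSG, with CON-LFD at 7.23 ± 0.35, DIO-HFD at 7.17 ± 0.42 and DIO-LFD at 7.12 ± 0.27. DIO-VSG was higher, at any size, for 30 of 39 genes against DIO-HFD (48.3% of all genes), 29 against CON-LFD (54% of all genes), 32 against DIO-LFD (53.6%) and 33 against the mean of the other 3 groups (52.8%). The median difference of the 35 general genes lay between 0.18 and 0.25 in these 4 comparisons, beside -0.01 to 0.023 over all genes. All 4 comparisons share the DIO-VSG arrays and genes of 1 cell type are not independent, so these counts are not 4 findings, and whether tip cell and general genes differ was not tested.

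**Figure D3:**
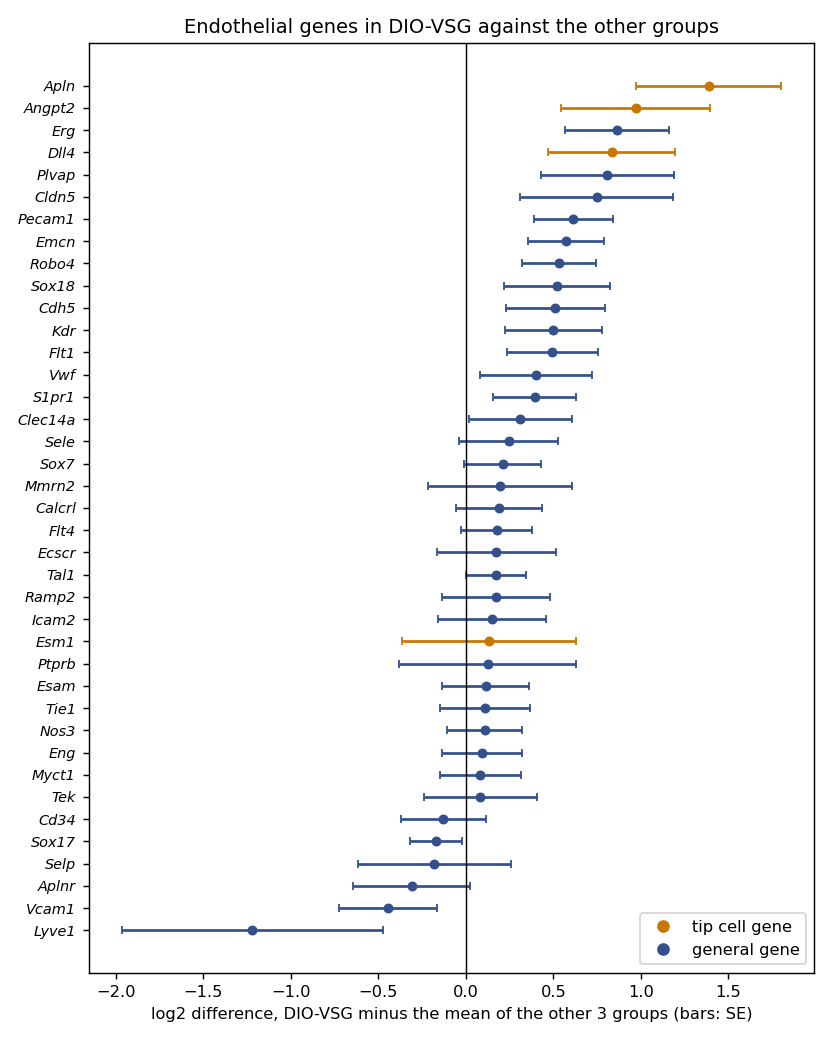
Log2 difference of DIO-VSG from the mean of the other 3 groups (x axis) for each of the 39 genes, with bars of 1 SE from the limma fit; orange marks tip cell genes and blue the general ones. Apln is highest at 1.39 and Lyve1 lowest at -1.22, and 33 of 39 genes lie above 0.

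At an unadjusted p below 0.05, 8 of 39 genes were higher in DIO-VSG than the mean of the other groups and 0 were lower: Apln, Angpt2, Dll4, Erg, Pecam1, Emcn, Robo4 and Plvap. Over all genes 1.99% were higher and 1.72% lower. Against DIO-HFD alone the counts were 2 higher (Pecam1 and Plvap) and 0 lower, beside 2.92% and 2.67% of all genes. Against CON-LFD 7 were higher and 2 lower (Vcam1 and Sox17), beside 3.57% and 3.1%. Against DIO-LFD 9 were higher and 1 lower (Vcam1), beside 2.02% and 1.37%. No endothelial gene separated DIO-VSG from another group without overlap, as 0.205%, 0.313% and 0.318% of all genes did against DIO-HFD, CON-LFD and DIO-LFD.

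Among transcription factors, Erg, which keeps endothelial identity and junctions, was the most even within DIO-VSG. Its 6 tumors lay at 6.67, 7.005 and 7.19 (lowest, median, highest) with an SD of 0.21, against 4.95, 5.78 and 6.71 in CON-LFD and 5.98, 6.355 and 7.56 in DIO-HFD. The DIO-LFD tumors read 5.85, 7.27, 6.73, 4.89 and 5.66. The lowest DIO-VSG tumor lay above 5 of 6 CON-LFD, 4 of 6 DIO-HFD and 3 of 5 DIO-LFD tumors. Those 3 DIO-LFD tumors were the muscle-rich ones. Without muscle-rich arrays the Erg means were 7.033 in DIO-VSG, 7 in 2 DIO-LFD tumors, 6.592 in DIO-HFD and 5.38 in CON-LFD. Over all arrays, Erg in DIO-VSG was 2.30-fold higher than in CON-LFD (log2 difference 1.203, SE 0.36, limma adjusted p = 0.613) and 0.86 above the mean of the other groups. Sox7 and Sox18, SOXF factors of endothelium, were 0.21 and 0.52 above that mean, Tal1 was 0.17 above it, and Sox17 lay at 3.09 to 3.61 in every group mean.

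Among surface and junction genes, 12 of 13 were above the mean of the other groups in DIO-VSG. Pecam1, the junction protein CD31, read 10.48, 10.985 and 11.52 in DIO-VSG, 10.01, 10.28 and 10.83 in DIO-HFD, 10.25, 10.74 and 11.24 in CON-LFD, and 9.4, 10.79, 10.26, 10.84 and 9.18 in DIO-LFD. It was the general gene with the smallest p against DIO-LFD (0.93, SE 0.286, limma adjusted p = 1.00) and was 0.62 above DIO-HFD. Plvap, which forms the diaphragms of fenestrated capillaries, was 2.27-fold higher in DIO-VSG (7.49, 8.96 and 10.11) than in DIO-HFD (6.36, 7.73 and 9.3; 1.19, SE 0.464, limma adjusted p = 0.874). Its CON-LFD tumors (7.42, 8.825 and 9.69) were near those of DIO-VSG, and DIO-LFD read 7.24, 8.09, 8.61, 8.41 and 7.41. Plvap thus followed the reverse order of the tip cell genes between the lean and obese groups, with DIO-HFD minus CON-LFD at -0.93 (SE 0.464, adjusted p = 0.388).

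Emcn (endomucin, a surface sialomucin of capillaries and veins) instead resembled Apln. It read 7.71, 8.41 and 8.95 in DIO-VSG, 7.89, 8.145 and 8.63 in DIO-HFD, 6.66, 7.56 and 8.28 in CON-LFD, and 7.87, 8.28, 8.15, 7.2 and 7.17 in DIO-LFD. DIO-VSG was 1.83-fold CON-LFD (0.87, SE 0.262, limma adjusted p = 0.613). The low place of DIO-LFD rested on its muscle-rich arrays. Without such arrays the Emcn means were 8.215 in 2 DIO-LFD tumors, 8.194 in DIO-HFD, 8.455 in DIO-VSG and 7.345 in CON-LFD. Cldn5, the tight-junction claudin, was likewise higher in the groups DIO-VSG and DIO-HFD, with wider spread: 1.17 for DIO-VSG and 1.24 for DIO-HFD over CON-LFD, and -1.22 for DIO-LFD minus DIO-HFD. Its means without muscle-rich arrays were 7.412 in DIO-VSG, 7.512 in DIO-HFD, 6.87 in 2 DIO-LFD tumors and 6.01 in CON-LFD. Cdh5 (VE-cadherin) read 9.45, 10.85 and 11.33 in DIO-VSG, 9.42, 10.46 and 10.94 in DIO-HFD, 9.41, 10.11 and 11.24 in CON-LFD, and 9.49, 10.41, 9.42, 9.96 and 9.16 in DIO-LFD. Its difference of 0.92 from DIO-LFD (SE 0.363, limma adjusted p = 1.00) was the largest of its 3 pairwise DIO-VSG differences, with 0.23 from DIO-HFD and 0.38 from CON-LFD. Cd34 was the 1 surface gene below the other groups, by -0.13.

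**Figure D4:**
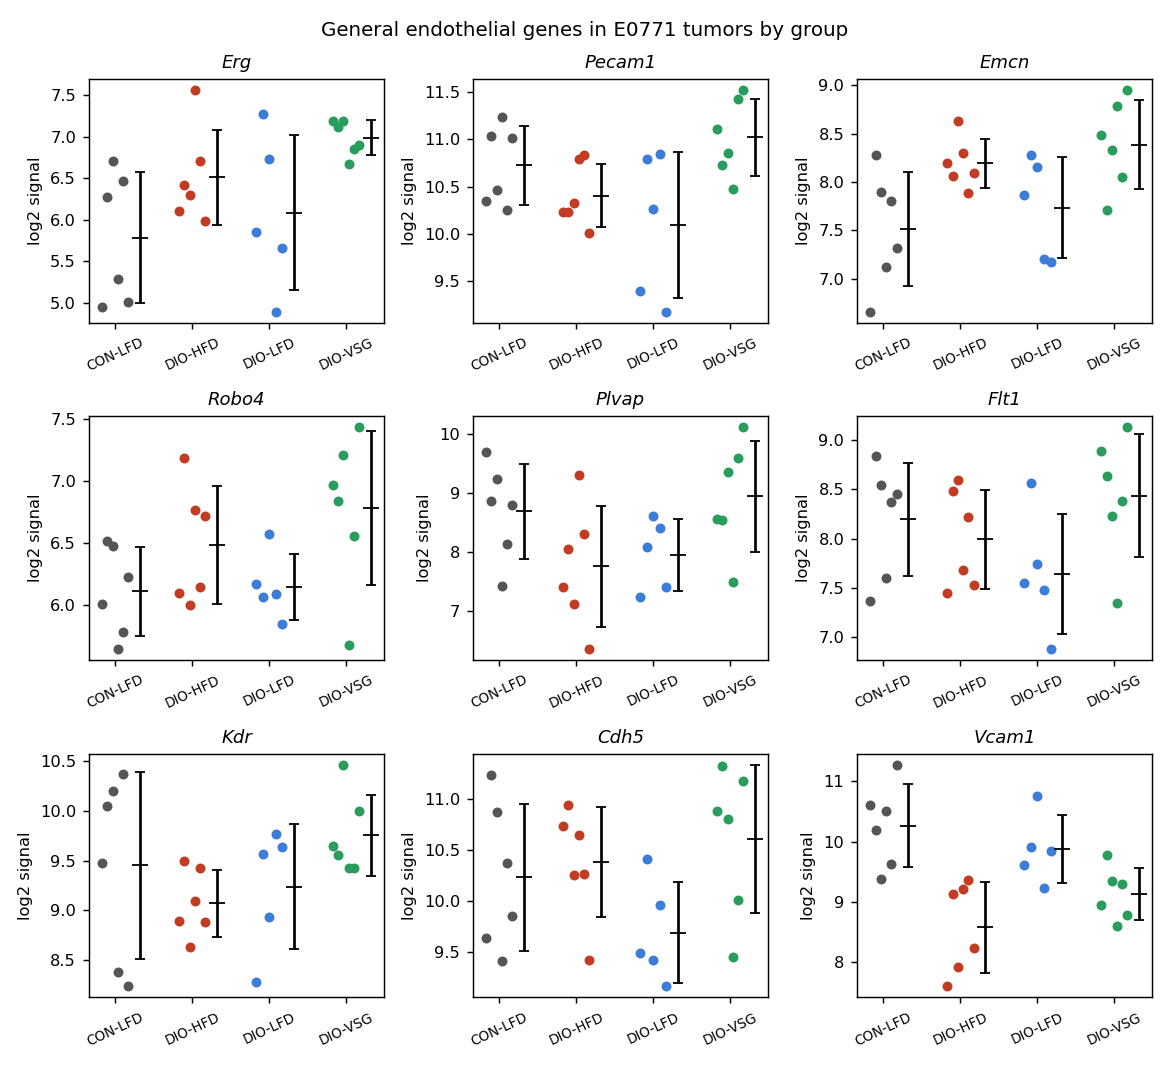
Log2 signal (y axis) in each tumor by group (x axis) for 8 general endothelial genes and Vcam1; points are single tumors and bars the group mean ± SD (n = 6, or 5 in DIO-LFD). Erg is narrow in DIO-VSG (SD 0.21), and the DIO-HFD tumors lie below every CON-LFD tumor only for Vcam1.

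Among receptors, 12 of 13 were above the mean of the other groups in DIO-VSG, by small amounts. Robo4, a receptor that stabilizes vessels, read 5.68, 6.905 and 7.43 in DIO-VSG, 6.0, 6.435 and 7.18 in DIO-HFD, 5.65, 6.12 and 6.52 in CON-LFD, and 6.17, 6.07, 6.57, 6.09 and 5.85 in DIO-LFD (0.53 above the mean of the others, SE 0.209, limma adjusted p = 1.00). The VEGF receptors came next. Kdr (VEGFR2, the main signaling receptor) read 9.42, 9.605 and 10.46 in DIO-VSG, 8.63, 8.99 and 9.5 in DIO-HFD, 8.24, 9.765 and 10.37 in CON-LFD, and 8.28, 9.57, 8.93, 9.77 and 9.64 in DIO-LFD. Its DIO-VSG difference from DIO-HFD was 0.68 (SE 0.337, limma adjusted p = 0.883), with 4 of 6 DIO-VSG tumors above every DIO-HFD tumor. Flt1 (VEGFR1, largely a decoy for VEGF) read 7.35, 8.51 and 9.13 in DIO-VSG, 7.45, 7.95 and 8.6 in DIO-HFD, 7.37, 8.41 and 8.84 in CON-LFD, and 7.55, 8.57, 7.74, 7.48 and 6.88 in DIO-LFD. Its difference was 0.79 from DIO-LFD and 0.24 from CON-LFD.

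With all arrays included, the receptors of Apln and Angpt2 did not follow their ligands between DIO-VSG and CON-LFD. Aplnr, the receptor of Apln, was -0.50 in DIO-VSG against CON-LFD (SE 0.406), and Tek (Tie2), the receptor of Angpt2, was 0.02 (SE 0.392). Both differences depended on the muscle-rich arrays. Without such arrays the Aplnr means were 6.16 in DIO-VSG and 6.15 in CON-LFD. The Tek means were then 4.85 in DIO-VSG and 4.30 in CON-LFD, in the direction of Angpt2, but 5.19 in 2 DIO-LFD tumors. Calcrl, the adrenomedullin and CGRP receptor, was higher in DIO-HFD (8.08, 8.905 and 9.76) than in DIO-LFD (8.39, 7.54, 6.9, 6.96 and 7.79), 1.35 lower in the latter (log2 difference -1.35, SE 0.311, limma adjusted p = 0.650). CON-LFD tumors (7.12, 8.265 and 8.58) and DIO-VSG tumors (7.66, 8.38 and 8.8) lay between. Ramp2, the partner that makes Calcrl an adrenomedullin receptor, differed by -0.23 in the same comparison.

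The adhesion molecule Vcam1, which binds leukocytes and is made by activated endothelium as well as by other cells, had the smallest p of all 39 genes. It read 7.6, 8.685 and 9.37 in DIO-HFD and 9.39, 10.35 and 11.28 in CON-LFD, so every DIO-HFD tumor lay below every CON-LFD tumor. It was the only one of 39 genes without overlap in that comparison, where 1.15% of all genes had none. The 3.23-fold lower level (log2 difference -1.69, SE 0.339) had a limma adjusted p of 0.0772 and so missed the threshold. It passed under 4 alternatives: 0.0475 with a trended and robust variance, 0.0391 without the 2 arrays whose labels conflict, 0.0381 with source names as groups, and 0.0344 with muscle and adipocyte covariates. It also passed without DIO-LFD replicate 1 alone (0.0354), which is 1 of the 2 arrays whose labels conflict. It did not pass with quantile normalization (0.0715), median centering (0.0679), a low-signal filter (0.0503) or array weights (0.0617). Nor did it pass with the replicate block (0.0661), on only the arrays compared (0.0952) or without the muscle-rich arrays (0.0771). Averaging the probe sets of a gene also left it above the threshold (0.0771).

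The DIO-LFD tumors read 9.61, 9.92, 10.76, 9.23 and 9.85 for Vcam1, 1.30 above DIO-HFD (SE 0.356, limma adjusted p = 0.650). The DIO-VSG tumors read 8.6, 9.125 and 9.78, which was 0.55 above DIO-HFD and 1.14 below CON-LFD (log2 difference -1.14, SE 0.339, limma adjusted p = 0.613). By group means, Vcam1 was thus low in the groups in which the tip cell genes were high. Within groups it was not opposed to them, with r of 0.155 to Esm1, 0.052 to Apln, 0.017 to Angpt2 and 0.256 to Dll4. Immune markers moved with Vcam1 between DIO-HFD and CON-LFD: 9 of 9 measured T cell genes and 6 of 12 macrophage genes were lower in DIO-HFD than CON-LFD at an unadjusted p below 0.05, where 5.89% of all genes were. Across the other groups they did not keep the order of Vcam1. The macrophage list mean was 10.294 in DIO-VSG and 10.386 in DIO-HFD, and the T cell list mean was 7.213 in DIO-VSG and 7.153 in DIO-LFD. The macrophage list mean ran from 9.408 to 10.931 in DIO-HFD and 10.855 to 11.33 in CON-LFD, with none of its genes at 0, and its part in the Vcam1 difference was not tested.

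E-selectin (Sele), which only activated endothelium makes, differed by 0.025 between DIO-HFD and CON-LFD, and P-selectin (Selp) by -0.75 (SE 0.534). Lyve1, a hyaluronan receptor of lymphatic endothelium that macrophages also carry, had the widest spread of the list. It read 7.91, 9.165 and 10.42 in DIO-VSG, 7.33, 10.895 and 11.83 in CON-LFD, 6.8, 10.55 and 11.89 in DIO-HFD, and 13.44, 12.06, 8.2, 8.94 and 11.03 in DIO-LFD. Its DIO-VSG difference of -1.22 from the mean of the others (SE 0.748, limma adjusted p = 1.00) did not pass, and all groups overlapped.

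**Figure D5:**
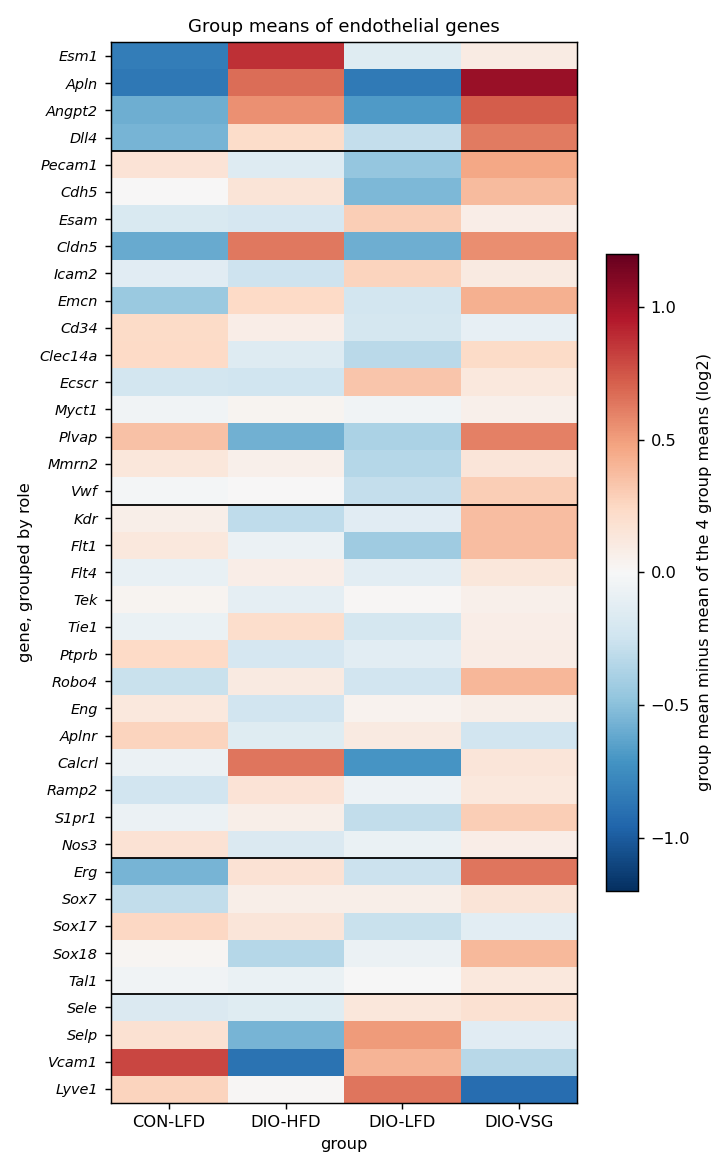
Group mean minus the mean of the 4 group means (log2, color scale) for the 39 genes, ordered by role with lines between roles; columns are the 4 groups. Apln, Angpt2 and Dll4 are positive in DIO-HFD and DIO-VSG and negative in CON-LFD and DIO-LFD, and Vcam1 has the opposite sign in every group.

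In the remaining comparisons, 6 of 39 genes were higher in DIO-HFD than CON-LFD at an unadjusted p below 0.05 (Esm1, Apln, Angpt2, Emcn, Cldn5 and Calcrl) and 1 was lower (Vcam1), where 7.53% of all genes were higher and 5.89% lower. In DIO-LFD against DIO-HFD 1 was higher (Vcam1) and 5 were lower (Apln, Angpt2, Cldn5, Calcrl and Sox17), beside 2.4% and 3.77%, and 0 had no overlap, beside 0.461%. In DIO-LFD against CON-LFD 0 were higher and 2 were lower (Pecam1 and Sox17), beside 2.83% and 2.6%, and only Sox17, which is below the low limit, had no overlap, beside 0.477%. The share of tip cell genes among these was 3 of 4 in DIO-HFD against CON-LFD and 2 of 4 in DIO-LFD against DIO-HFD.

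Wider lists of vessel genes were also examined. Over 114 further genes (other tip cell and endothelial genes, VEGF, angiopoietin, Notch and BMP pathways, inhibitors, lymphatic and mural cells), 0 were called by limma in any comparison. At an unadjusted p below 0.05, 3 were higher and 3 lower in DIO-VSG than in the mean of the other groups (1.99% and 1.72% of all genes), and 11 were higher and 10 lower when DIO-HFD was set against CON-LFD (7.53% and 5.89% of all genes). In DIO-VSG against CON-LFD, 4 of 16 other tip cell genes were higher and 1 lower, and 4 of 30 other endothelial genes were higher and 2 lower (3.57% and 3.1% of all genes). In DIO-LFD against DIO-HFD, 0 of the 30 other endothelial genes were higher and 6 lower (2.4% and 3.77% of all genes). The 16 other tip cell genes had a median difference of 0.12 for DIO-VSG against CON-LFD, beside 1.25 for the 4 listed ones. Of these, Chst1, a sulfotransferase of carbohydrate chains, read 5.71, 6.81 and 8.1 in DIO-HFD and 3.43, 5.12 and 5.79 in CON-LFD (1.82, limma adjusted p = 0.0772), and 1.29 higher in DIO-VSG than CON-LFD. Kcne3, a potassium channel subunit, was 0.66 higher in DIO-VSG than CON-LFD and 0.67 lower than in DIO-HFD (log2 difference -0.67).

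Ligands showed single differences. Vegfc, the lymphatic growth factor, was 0.64 higher in DIO-VSG (5.64, 6.045 and 6.33) than in DIO-HFD (4.86, 5.375 and 5.9; limma adjusted p = 0.860). Angpt1, which stabilizes vessels through Tie2, was -1.62 in DIO-VSG against CON-LFD (SE 0.55, limma adjusted p = 0.613), where Angpt2 was 1.32. The muscle-rich CON-LFD replicates 3 and 5 read 9.18 and 8.59 for Angpt1, and without muscle-rich arrays its means were 5.81 in CON-LFD and 4.94 in DIO-VSG. The lymphatic and fibroblast protein Pdpn (podoplanin) was 6.7, 7.705 and 9.13 in DIO-VSG and 7.94, 9.545 and 9.94 in CON-LFD. It moved with the 12 measured fibroblast genes, of which 8 were lower in DIO-VSG than the mean of the other groups at an unadjusted p below 0.05, where 1.72% of all genes were. Their mean ran from 7.665 to 10.467 in DIO-VSG and from 8.681 to 11.562 over the other groups, with none at 0, and their part in the endothelial differences was not tested. The 14 mural cell genes, pericyte and smooth muscle markers, had a median difference of -0.04 in that comparison.

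Within groups, the general genes followed a common mean across roles. The receptor genes and the junction genes had r of 0.961 and 0.927 with the general mean, which contains them. Taken singly against the mean of the remaining general genes, Mmrn2 (0.812), S1pr1 (0.777), Cdh5 (0.757), Ptprb (0.752) and Erg (0.727) were closest, and Pecam1 (0.276), Vcam1 (0.07), Lyve1 (0.064) and Calcrl (-0.004) were far from it. Outside the list, Ywhae (a 14-3-3 protein, r = 0.892), Sidt2, Ckap4, Ttc21b, Mcam (an adhesion molecule of endothelium and pericytes, 0.815), Pcyox1, Pdia3 and Dhx37 were most like the general mean. Mural cell genes had r = 0.537 with it and hypoxia genes -0.17.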

How the data were processed

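RNA of 23 tumors was measured on Affymetrix Mouse Clariom S HT arrays, and the deposited values are log2 signals that the authors made by SST-RMA in Transcriptome Analysis Console. They were used without further normalization. Of 22206 probe sets, 19572 carried 1 symbol in the platform annotation and 2634 carried none. The probe set with the highest mean stood for each of the 55 genes with several, which left 19505 genes.

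A group-mean model was fitted to all 23 arrays with limma 3.58.1 (lmFit, eBayes; R 4.3.3; 19 residual degrees of freedom), two-sided, with Benjamini-Hochberg adjustment over all genes within each of 7 comparisons at 0.05. Nothing in the labels says whether replicates were housed or processed together, so p-values measure the spread between tumors. The lowest correlation between 2 arrays was 0.961. Array values carry no read depth, so precision depends on how many arrays each group has. The fit was tested on simulated data.

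The genes and lists were chosen with earlier results of these data known. Every listed gene could be named. Array values (the lowest, median and highest in groups of 6, and all 5 in DIO-LFD) were given for the 4 tip cell genes and the 8 general genes with the smallest p in DIO-VSG against the mean of the other groups, and also for Vcam1, Lyve1 and Calcrl, which were chosen after their values were seen. In the other lists, up to 2 genes per list with the smallest p in a comparison were named. The genes most alike were the 8 with the highest correlation after group means were subtracted, leaving out predicted genes. Skeletal muscle, adipocyte, fibroblast, macrophage, T cell, hypoxia, mural and lymphatic lists were read as markers of other cells. Alternatives were quantile normalization, median centering, array weights, trended and robust variance, a filter at the 40th percentile, fits on only the arrays compared, the source names as groups, leaving out arrays, covariates and a replicate block. Figures were drawn with matplotlib 3.10.9.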

Additional observations from a re-analysis of the deposited data

Results flagged for a closer look

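Within the groups, 8 of 156 sets of array values held a single tumor far from the rest by Dixon's test, which chance alone gives in about 1 of 20 sets. Among tip cell genes, Esm1 was 8.73 in DIO-HFD replicate 3, where the next tumor had 6.37, and Dll4 was 5.38 in DIO-HFD replicate 6, where the next had 7.09. Among general genes, Clec14a was high at 6.28 in CON-LFD replicate 3 (next 4.08), Myct1 at 7.49 in DIO-VSG replicate 1 (next 6.58) and Flt4, the lymphatic VEGF receptor, at 5.58 in DIO-LFD replicate 2 (next 4.72). Low values were Eng at 12.7 (next 13.58) and Ramp2 at 6.96 (next 8.02), both in DIO-VSG replicate 4, a muscle-rich array, and Calcrl at 7.12 in CON-LFD replicate 1 (next 8.2).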

How the results depend on the processing

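Outside of arrays left out singly, the count of called endothelial genes was unchanged in 79 of 83 alternative fits, and the median difference moved by less than 1 SD between replicates in 163 of 166. That SD, taken within groups, was 0.827 for the tip cell mean and 0.327 for the general mean. The general medians of DIO-VSG against other groups were smaller than 0.327. They could fall to 0 and still count as unmoved, so this rule does not show that they were stable. The exceptions were the 1 call in DIO-HFD against CON-LFD (Vcam1) with a trended and robust variance, without the 2 arrays of conflicting labels, with source names as groups and with covariates, and, over arrays left out singly, a count of 0 to 1. The tip cell median of DIO-LFD minus DIO-HFD was -0.251 without the muscle-rich arrays and -0.153 with source names, and the general median of DIO-LFD minus CON-LFD was 0.267 without them. The causes were not tested. Median centering moved the median of all genes from 0.023 to 0.15 in DIO-VSG against CON-LFD and from 0.027 to 0.135 in DIO-HFD against CON-LFD.

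Signs turned as follows. Angpt2 in DIO-LFD minus CON-LFD turned to 0.025 (array weights), 0.256 (without the 2 arrays), 0.689 (source names), 0.785 (without muscle-rich arrays) and 0.097 (covariates). Under the last 4 of these settings Esm1 was -0.214, -0.296, -0.515 and -0.374 in DIO-VSG minus DIO-LFD, and -0.088, -0.001, -0.266 and -0.24 against the mean of the other groups. Angpt2 in DIO-VSG minus DIO-HFD was -0.038 without the 2 arrays, and Dll4 in DIO-LFD minus DIO-HFD was 0.162 without muscle-rich arrays.

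Over arrays left out singly, the count above aside, the sign turned at least once for Apln (-0.488 to 0.359), Dll4 (-0.006 to 0.496) and Angpt2 (-0.547 to 0.256) in DIO-LFD minus CON-LFD, for Angpt2 in DIO-VSG minus DIO-HFD (-0.038 to 0.537), and for Esm1 in DIO-VSG minus DIO-LFD (-0.11 to 0.658) and against the mean of the other groups (-0.048 to 0.42).

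The replicate numbers did not pair the tumors: the 33 same-numbered pairs had correlations of their deviations from -0.281 to 0.341 (median 0.004, against -0.012 for other pairs), and 4 of 23 arrays were most like an array of their own number. With the replicate number as a block, 0 endothelial genes were called in each comparison, as without it. The tip cell median of DIO-VSG minus CON-LFD, 1.252, could not change with the block, since both groups hold every replicate number. The fit on only the arrays compared could not differ for DIO-VSG against the mean of the other 3 groups, which uses all arrays.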
